A study of Mus musculus with 4 samples.

Results

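The miR-344 family is a group of related miRNAs of mouse and rat. The members were all entries of the deposited miRNA table that are named miR-344, with any letter, copy number or arm, and there were 13 of them among the 1038 miRNAs listed. They included 7 products of the 3p arm and 6 of the 5p arm of the hairpin precursor. The rule for membership used names alone.

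The libraries came from the medial prefrontal cortex, taken from both sides of the brain, of male C57BL/6 mice (C57BL/6J in the study's methods). The mice were juvenile when the study began and older when the tissue was taken, after a week of adaptation and the weeks of treatment. Mice of the CUMS group lived under chronic unpredictable mild stress for 3 weeks. This was social isolation together with a changing schedule that included tilted or damp cages, restraint, noise and disturbed light cycles. Isolation was not among the conditions picked at random. Only stressed mice that then met criteria for depression-like behavior in sucrose preference, Y-maze and forced swimming tests were used, so CUMS stands for the stress together with this selection. Control mice of the same strain, sex and age lived without these stressors. Small RNA was sequenced in 2 libraries per group, with RNA isolated from the tissue of each mouse. The deposited table gives the mean normalized read count of each group, in which the reads of a library are divided by its size factor, a number that puts libraries of different depth on a common scale. Whole reads of single libraries were recovered from these means, and the letters a and b only tell the libraries of a group apart.

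A miRNA guides the silencing machinery to messenger RNAs that pair with its seed, the bases 2 to 8 from its 5′ end, so that miRNAs with the same seed can share targets and related miRNAs with different seeds need not. Each hairpin can release a mature miRNA from either arm, and usually the product of a single arm is kept. Members of the miR-344 family are known from the rodent brain, and in mouse their hairpins lie in a cluster beside Ndn, Magel2, Mkrn3 and Peg12, genes of the imprinted region that corresponds to the human Prader-Willi region.

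The mature sequences show how the family divides, and they are printed here because seed and abundance did not follow the names. Sequences are from RefSeq (GRCm38.p6), written 5′ to 3′ with the seed in capitals. The first set shares the seed AUAUAAC and held 38.8% of the family's reads over the 4 libraries.
miR-344d-3p: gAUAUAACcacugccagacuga
miR-344e-3p: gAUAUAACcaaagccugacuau

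The second set shares the seed GAUCUAG, with 33.1% of the family's reads.
miR-344-3p: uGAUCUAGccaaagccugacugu
miR-344c-3p: uGAUCUAGucaaagccugacagu

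A single member with the seed AUUUAGC held 23.4% of the reads.
miR-344b-3p: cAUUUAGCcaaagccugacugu

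The seed GUCAGGC is shared by 4 products of the 5p arm, which held 4.40% of the reads.
miR-344d-3-5p: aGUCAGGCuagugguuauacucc
miR-344-5p: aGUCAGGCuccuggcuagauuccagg
miR-344d-1-5p: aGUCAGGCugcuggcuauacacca
miR-344g-5p: aGUCAGGCuccuggcaggagu

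The remaining members each have a seed of their own in the family.
miR-344f-3p: cUCUAGCCaggaccugacuac
miR-344f-5p: aGUCAGUCuccuggcuggaguc
miR-344d-2-5p: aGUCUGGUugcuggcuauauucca
miR-344g-3p: cAGGCUCUagccaggggcuuga

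The family thus spanned 8 seeds in 13 members. miR-344-3p, miR-344b-3p, miR-344c-3p and miR-344e-3p have 3 different seeds but hold the same run of 11 bases behind them. GCCUGAC, which is the reverse complement of the 5p seed GUCAGGC, stood in 4 of the 7 listed 3p products, namely miR-344-3p, miR-344b-3p, miR-344c-3p and miR-344e-3p. Of 1679 mouse mature miRNAs in RefSeq, 0.476% held GCCUGAC and 0.357% had GUCAGGC as their seed. This is a description of the letters only. miR-344-3p and miR-344b-3p have different seeds but share a run of 18 bases, from position 6 of miR-344-3p and position 5 of miR-344b-3p. Reads from 18 nt in length were counted with an overlap of at least 16 nt, so a read of exactly that run could match both. No other member shares a stretch of 18 bases with another hairpin of the family than its own, and none does with a hairpin outside it.

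RefSeq places 13 hairpins of the family on the minus strand of chromosome 7, within chr7:61683124-62085310 of GRCm38, a span of 402 kb. From the lower coordinate they run Mir344d-1, Mir344d-2, Mir344d-3, Mir344e, Mir344h-1, Mir344h-2, Mir344b, Mir344c, Mir344, Mir344-2, Mir344g, Mir344f and Mir344i. Introns of the long noncoding RNA gene A230057D06Rik (chr7:61704519-61928690) hold 7 of them, from Mir344d-3 to Mir344. Mir344-2 lies in an intron of the noncoding gene A330076H08Rik (chr7:61930137-61982358), and Mir344g overlaps an exon of the same gene. The remaining 4, Mir344d-1, Mir344d-2, Mir344f and Mir344i, lie in no annotated gene of GENCODE M21. The nearest protein-coding gene is Ndn (chr7:62346569-62350262), 261 kb from the last hairpin. Magel2, Mkrn3 and Peg12 follow at 292, 332 and 377 kb, and on the other side the nearest is Snrpn, 1543 kb away. No other listed miRNA has its hairpin within 1 Mb of the cluster. The mature names miR-344b-5p, miR-344c-5p, miR-344e-5p, miR-344h-3p, miR-344h-5p and miR-344i of RefSeq are not among the listed miRNAs, so they have no values here.

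The libraries held 9589323 to 10783592 reads on known miRNAs, so that a miRNA without reads has a share of at most 2.78e-05% to 3.13e-05%, taking 3 reads as the upper limit. Limits and intervals for single libraries cover counting error only, since PCR reads without molecular identifiers are not independent molecules. A set of 6 neuronal and cortical miRNAs, such as miR-124-3p and miR-9-5p, took 6.76% to 9.51% of the reads, and miR-122-5p of liver had 0 or 1 read. Control library b stood apart: 8 of 8 listed miRNAs of epithelial and sensory cells (the miR-200 and miR-183 families) took 9.32% of its reads, against 0.0393% in Control library a, 0.0503% in CUMS library a and 0.0721% in CUMS library b. Differences of the family and of its members past a minimum level are therefore also given without Control library b, and the part of those cells in them was not tested. In bulk tissue, fewer cells of a type and less RNA per cell cannot be told apart.

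The miR-344 family was a minor share of the cortical miRNAs and did not differ between the groups beyond the spread of the libraries. Its reads numbered 5151 and 5246 for Control against 5501 and 4049 for CUMS. As a share of miRNA reads this was 0.0489% (95% Wilson interval, 0.0476% to 0.0503%) and 0.0486% for Control. For CUMS it was 0.0528% (0.0514% to 0.0542%) and 0.0422% (0.0409% to 0.0435%). By share of reads, the CUMS libraries lay on either side of the Control libraries, and the counting intervals of the CUMS libraries did not overlap with each other. These shares are of totals that include the 9.32% of reads on epithelial and sensory miRNAs in Control library b. The normalized sums were 5038 and 5244 for Control against 5180 and 4290 for CUMS, so that on this scale CUMS library a lay between the Control libraries and CUMS library b lay below them. Their means were 5141 ± 145 (SD, n = 2) in Control and 4735 ± 629 (SD, n = 2) in CUMS, a ratio of 0.921 and a log2 difference of -0.12. With 2 libraries against 2, the smallest two-sided p of an exact permutation test is 0.333, so no single value can pass 0.05 on its own. Without Control library b the log2 difference was -0.09. Leaving out CUMS library a moved it to -0.26, and leaving out CUMS library b moved it to 0.011, so its direction rested on CUMS library b.

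The family was mostly made of 3 products of the 3p arm. miR-344d-3p, miR-344-3p and miR-344b-3p together held 93.7% to 95.1% of the family's reads in a library. Adding miR-344d-3-5p brought this to 98.5% and 98.9% for Control against 99.1% for both CUMS libraries. Products of the 3p arm as a whole held 94.5% to 96.2% of the family's counted reads, which leave out full-length reads of miR-344-5p (26 nt). By mean level over both groups, the 3 leading members ranked 137, 147 and 165 among the 1038 miRNAs, miR-344d-3-5p ranked 258, miR-344c-3p 393, miR-344f-3p 539 and miR-344f-5p 568. These 7 members had a group mean reaching 5, the minimum set for values by library.

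**Figure D1:**
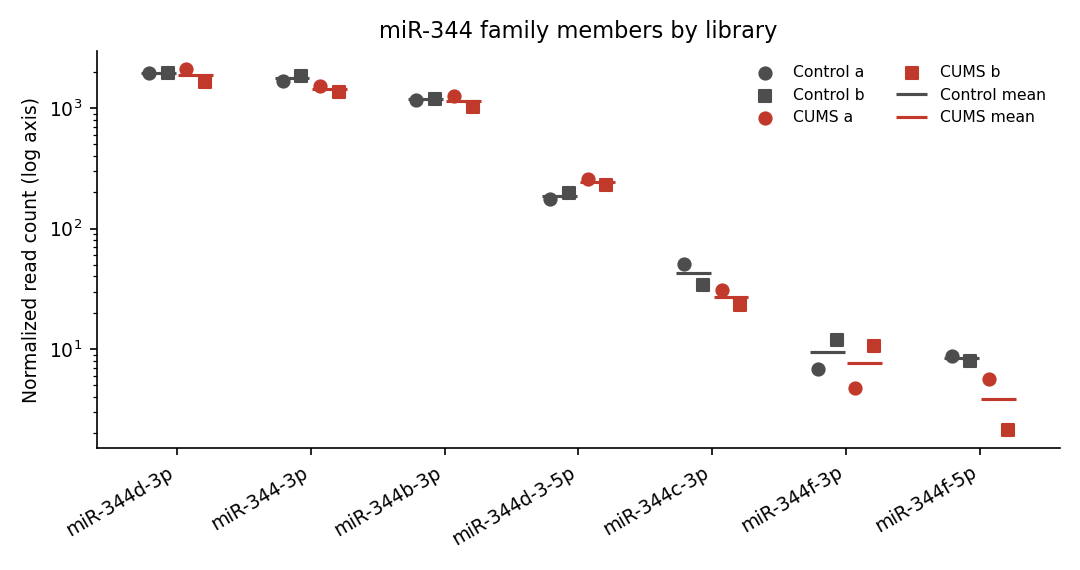
Normalized read counts (log axis) of the 7 miR-344 members whose mean reached 5 in Control or CUMS, by library; circles and squares are libraries a and b, and lines are group means. The leading 3p products lie above all other members in every library, and miR-344d-3-5p is the only member whose 2 CUMS values both lie above both Control values.

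miR-344d-3p, the most abundant member, can be cut from 3 hairpins, Mir344d-1, Mir344d-2 and Mir344d-3, and its reads do not tell which of them was the source. Its normalized counts were 1953 and 1939 for Control against 2114 and 1636 for CUMS. The Control values were close together and lay between the CUMS values. The log2 difference of the group means was -0.05, and -0.06 without Control library b. DESeq2 gave -0.06 with a 95% Wald interval of -0.46 to 0.34. No difference was detected, and any difference within this interval remains compatible with the data, so the levels are not shown to be equal.

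Nearly all detected reads of the other arm matched a single copy. miR-344d-3-5p, miR-344d-1-5p and miR-344d-2-5p have different sequences and so can be told apart, which the 3p product cannot. Over the 4 libraries, 869 of the 875 reads of these 5p products (99.3%) belonged to miR-344d-3-5p, and miR-344d-1-5p and miR-344d-2-5p had 3 reads each (0.343%). The copy inside the lincRNA A230057D06Rik thus gave nearly all detected 5p reads, and the copies outside annotated genes gave 6. Whether the copies differ in transcription or in the arm that is kept was not tested. The 3p product held 91.6% and 90.7% of all miR-344d reads for Control against 89.2% and 87.5% for CUMS, lower in both CUMS libraries.

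miR-344d-3-5p was the only member past the minimum with a higher mean in CUMS. Its normalized counts were 177 and 198 for Control against 256 and 231 for CUMS, and both CUMS values lay above both Control values. Its group means were 187 ± 14.8 and 244 ± 17.8 (SD, n = 2 each), a ratio of 1.30 and a log2 difference of 0.38. Without Control library b the log2 difference was 0.46. It was not called in the test across all miRNAs (edgeR quasi-likelihood test, log2 fold change 0.34, adjusted p = 0.849), and the interval of DESeq2 ran from -0.21 to 0.96.

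miR-344-3p, the namesake of the family, can come from the hairpins Mir344 and Mir344-2. Its normalized counts were 1671 and 1850 for Control against 1513 and 1364 for CUMS, so that the groups did not overlap and CUMS was lower. The group means were 1760 ± 127 and 1438 ± 106 (SD, n = 2 each), a log2 difference of -0.29, and -0.22 without Control library b. edgeR gave a log2 fold change of -0.33 with an adjusted p of 0.849, and the DESeq2 interval was -0.68 to 0.09. Its 5p partner miR-344-5p had 2 and 1 reads for Control against none for CUMS, so the 3p arm made up 99.9% of the reads of both arms in each Control library and 100% in each CUMS library. The 3 listed miRNAs of glia, miR-219a-2-3p, miR-338-3p and miR-142a-3p, were also lower in both CUMS libraries, with summed shares of 0.0751% and 0.0764% of reads for Control against 0.0616% and 0.0709% for CUMS, and their part in the result was not tested.

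miR-344b-3p, whose seed no other member has, was highest in CUMS library a and lowest in CUMS library b, as was miR-344d-3p. Its normalized counts were 1161 and 1198 for Control against 1250 and 1021 for CUMS, again with the Control values between the CUMS values. The log2 difference was -0.05, and -0.03 without Control library b. DESeq2 gave -0.06 with an interval of -0.47 to 0.35.

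miR-344c-3p has the same seed as miR-344-3p and was far less abundant. It had 52 and 34 reads for Control against 33 and 22 for CUMS, and the mean normalized counts were 42.4 ± 11.9 against 27.2 ± 5.49 (SD, n = 2 each). Both CUMS libraries lay lower than both Control libraries, by a small margin for Control library b. The Control mean was 1.56 times the CUMS mean, a log2 difference of -0.64. It was -0.90 without Control library b and -0.32 without Control library a, which is under a fold of 1.5. The DESeq2 interval of -1.90 to 0.61 held 0, and edgeR gave an adjusted p of 0.849.

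Both arms of Mir344f were detected at similar low levels. From Mir344 nearly only the 3p product was counted, but full-length reads of its 5p product were too long to be counted. miR-344f-3p had 7 and 12 reads for Control against 5 and 10 for CUMS, which overlap, and its log2 difference of -0.30 became 0.16 without Control library b. miR-344f-5p had 9 and 8 reads for Control against 6 and 2 for CUMS, both CUMS libraries lower. Its Control mean was 2.16 times its CUMS mean, with a DESeq2 interval of -3.96 to 1.74 on the log2 scale, which at this depth cannot set a direction. Its log2 difference was -1.11, and -1.18 without Control library b.

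The other 6 members together had 10 and 5 reads for Control against 5 and 2 for CUMS. miR-344e-3p, which has the seed of miR-344d-3p, had 4 and 2 reads for Control against 3 and 0 for CUMS. miR-344d-1-5p had 2 and 1 for Control and none for CUMS, and miR-344d-2-5p had none for Control and 1 and 2 for CUMS. miR-344g-5p had 2 reads, both in Control library a, and miR-344g-3p had 1 in Control library b and 1 in CUMS library a. miR-344d-1-5p, miR-344d-2-5p, miR-344g-5p and miR-344-5p had no reads in both libraries of a group and at most 2 in any library, under the upper limit of 3, so no fold is given.

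**Figure D2:**
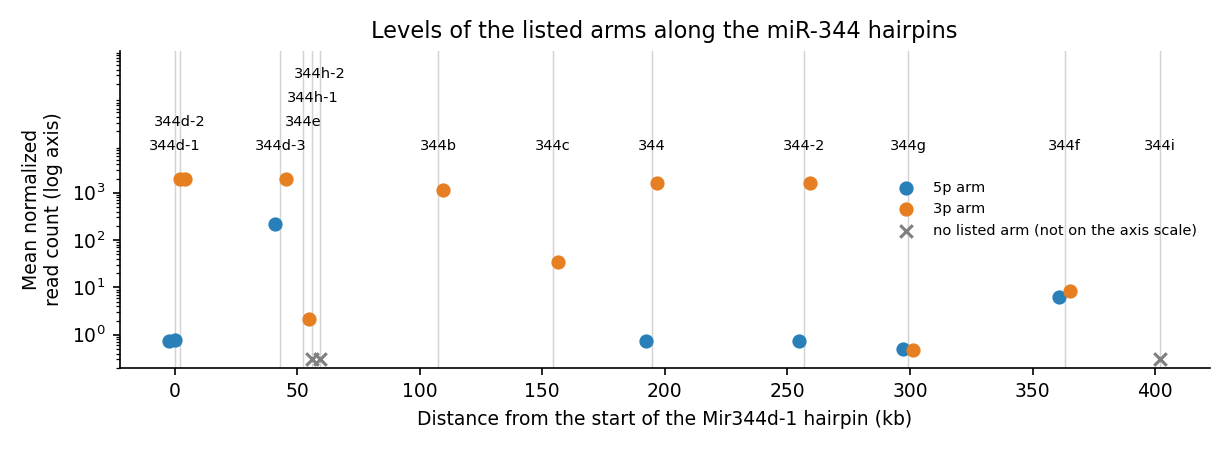
Mean normalized read count over the 4 libraries (log axis) of each listed arm against the distance of its hairpin from the start of Mir344d-1 (kb, from the lower coordinate). A mature miRNA that several hairpins can give is drawn at each of them with its whole level, points are shifted sideways by arm, and crosses mark hairpins with no listed arm. High 3p levels are drawn at several hairpins from Mir344d-1 to Mir344-2, with low ones at Mir344e and Mir344c between them. Of the high ones, only that of miR-344b-3p is of a product with a single annotated hairpin.

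Abundance did not follow position along the cluster. Mir344e, with 9 reads over the 4 libraries, lies between Mir344d-3 and Mir344b, whose listed arms had 8595 and 4677. Mir344c had 141 and lies between Mir344b and Mir344, in introns of the same noncoding gene. Values of hairpins that share a mature product count the same reads.

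Across the family, 6 of the 7 members past the minimum had a lower mean in CUMS and 1 had a higher mean. Over all 628 miRNAs past the same minimum, 47.3% had a lower mean in CUMS. The median log2 difference of the 7 members was -0.29, beside 0.02 over all miRNAs past the minimum with a finite fold. The group means of miR-344d-3p and miR-344b-3p, with log2 differences of -0.05, were close to equal, and both were 0.03 when reads were scaled to the library total. Under that scaling 3 members had a higher mean in CUMS, and the same number did without CUMS library b. The count of 6 lower members thus rests on small differences. The total of Control library b includes its 9.32% of epithelial and sensory reads, whose part in the scaled values was not tested. Without Control library b, 2 members were higher in CUMS, miR-344d-3-5p and miR-344f-3p.

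Past the fold of 1.5 used in the study's criteria there were 2 members lower in CUMS, miR-344c-3p and miR-344f-5p, against 13.7% of all miRNAs past the minimum. Which members passed depended on single libraries. Without Control library a, miR-344c-3p no longer passed and miR-344f-3p did (log2 difference -0.65). Without CUMS library b, miR-344c-3p (-0.45) and miR-344f-5p (-0.57) both stayed under it, and miR-344f-3p (-1.001) was the only member past the fold. No member was higher by that fold, against 11.9% of all. Both CUMS libraries lay below both Control libraries for 3 members, miR-344-3p, miR-344c-3p and miR-344f-5p, beside 17.4% of all miRNAs, and above them for 1, miR-344d-3-5p, beside 18.2%. The members past the fold were the ones with the fewest reads apart from miR-344f-3p, and no member whose group mean reached 50 passed it.

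No member was called by a test across all miRNAs. edgeR's quasi-likelihood test called 0 of the 7 members tested, as it called 0% of 719 miRNAs at an adjusted p under 0.05. At an unadjusted p under 0.05 it had 0 members and 4.17% of all miRNAs, and the smallest unadjusted p of a member was 0.118, for miR-344-3p. The Wald test of DESeq2 also called 0 members, both adjusted and unadjusted, with an adjusted p of 0.998 for each of the 7. These p-values set the difference of the groups against the spread of libraries within groups, which both tests estimate partly from the other miRNAs.

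**Figure D3:**
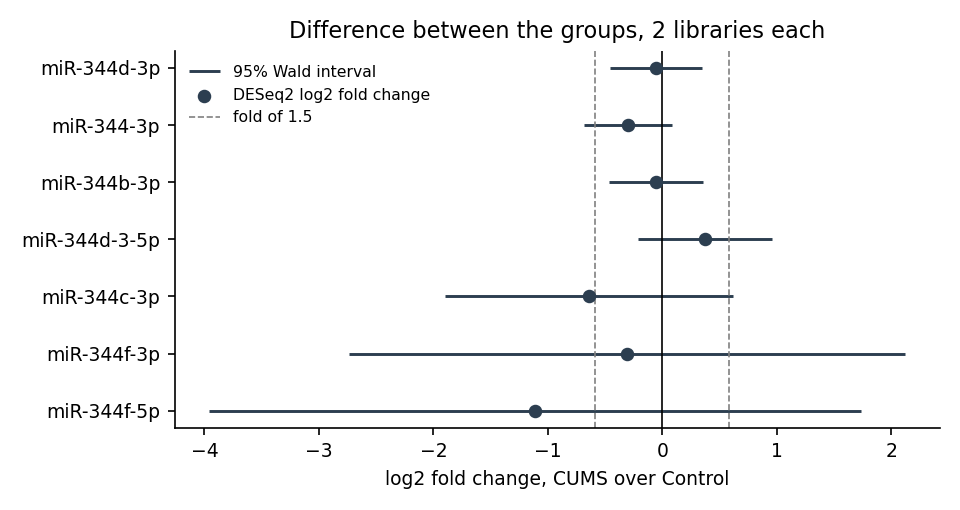
DESeq2 log2 fold change of CUMS over Control (points) with 95% Wald intervals (bars) for the 7 members past the minimum, 2 libraries per group; dashed lines mark a fold of 1.5 and the solid line 0. All 7 intervals hold 0, and the widest are those of miR-344f-5p and miR-344f-3p, the members with the fewest reads of the 7.

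The members did not keep a fixed ratio to each other, and ratios of reads within a library do not depend on how libraries are scaled. The 5 ratios that follow were chosen after the members' values were seen, and all that were computed are given. miR-344b-3p had 59.4 and 61.8 reads per 100 of miR-344d-3p for Control against 59.2 and 62.4 for CUMS. These overlap, and the log2 difference of the group means of the ratio was 0.00. miR-344d-3p and miR-344b-3p thus kept nearly the same proportion in the 4 libraries although their levels differed between CUMS libraries a and b.

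miR-344-3p had 85.5 and 95.4 reads per 100 of miR-344d-3p for Control against 71.6 and 83.4 for CUMS, lower in both CUMS libraries by a log2 difference of -0.22. The counting intervals of Control library a (80.2 to 91.2) and CUMS library b (77.4 to 89.8) overlapped. miR-344d-3-5p had 9.06 and 10.2 reads per 100 of miR-344d-3p for Control against 12.1 and 14.1 for CUMS, higher in both by 0.45 on the log2 scale. Here too the interval of Control library b (8.82 to 11.8) overlapped that of CUMS library a (10.7 to 13.7). miR-344c-3p had 3.04 and 1.84 reads per 100 of miR-344-3p for Control against 2.05 and 1.71 for CUMS, and these overlap. The lower level of miR-344c-3p in CUMS thus came with a lower level of miR-344-3p, and their proportion overlapped between the groups, though not without Control library b.

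The largest change of the 5 was between miR-344d-3-5p and miR-344-3p. There were 10.6 reads (95% interval, 9.09 to 12.3) and 10.7 reads (9.24 to 12.4) of miR-344d-3-5p per 100 of miR-344-3p in the Control libraries. The CUMS libraries had 16.9 (14.9 to 19.2) and 16.9 (14.7 to 19.6). Libraries of a group gave almost the same value, and the mean ratio in CUMS was 1.59 times that in Control, with counting intervals that did not overlap between groups. Without Control library b, the ratio of Control library a alone was 10.6. Such separations are common in this data set. Of all 47895 pairs among 310 miRNAs whose mean reached 100 in Control or CUMS, 34.4% had ratios in which the groups did not overlap, and 11.1% changed by as much or more in either direction. The numbers for as large a change were 24.2% for miR-344d-3-5p over miR-344d-3p and 51.7% for miR-344-3p over miR-344d-3p.

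**Figure D4:**
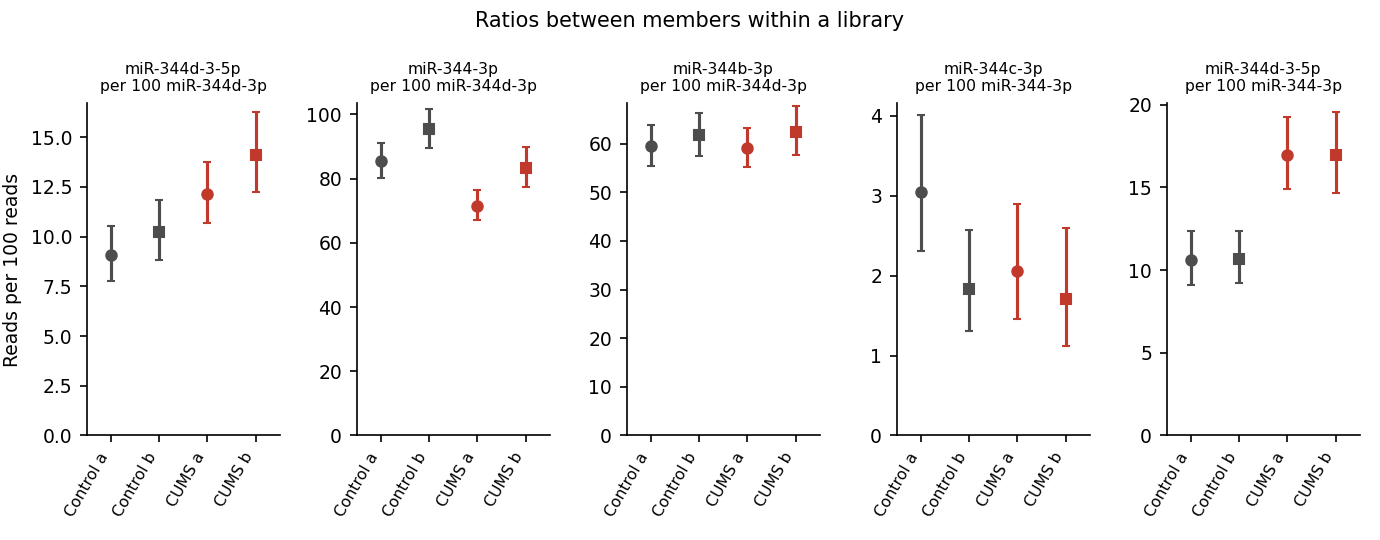
Reads of a member per 100 reads of another member in each library, with 95% counting intervals (bars), for the 5 ratios computed; grey is Control and red is CUMS, and every vertical axis starts at 0. The ratio of miR-344d-3-5p to miR-344-3p is 10.6 and 10.7 in Control and 16.9 in both CUMS libraries, and that of miR-344b-3p to miR-344d-3p stays between 59.2 and 62.4.

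The most abundant seed of the family was not the family's own. Among the listed miRNAs outside it, miR-410-3p alone has the seed AUAUAAC of miR-344d-3p and miR-344e-3p.
miR-410-3p: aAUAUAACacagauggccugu
miR-344d-3p: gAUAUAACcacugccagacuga

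miR-410-3p comes from Mir410 in the imprinted miRNA cluster of chromosome 12 (mature sequence at chr12:109743764-109743784, plus strand, GRCm38) and is a well-known brain miRNA. It was the miRNA with rank 29 of 1038 by mean, with 57866 and 57142 reads for Control against 56617 and 43304 for CUMS. For each read of miR-344d-3p there were 29.0 and 29.5 reads of miR-410-3p for Control against 25.2 and 28.0 for CUMS, fewer in both CUMS libraries. miR-344d-3p and miR-344e-3p together made up 3.34% and 3.29% of the reads with this seed for Control against 3.82% and 3.44% for CUMS. miR-410-3p had normalized counts of 56601 and 57119 for Control against 53309 and 45881 for CUMS, both CUMS values lower, with a log2 difference of -0.20. It was not called either (edgeR adjusted p = 0.849, and 0.998 with DESeq2). The other seeds of the family had no match among listed miRNAs outside it.

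The 3 miRNAs outside the family closest to miR-344d-3p in level over the 4 libraries were miR-126a-3p, miR-872-5p and miR-487b-3p. Their root mean square differences from it in log2 normalized counts were 0.16, 0.18 and 0.18. miR-126a-3p, a miRNA known from the endothelium of blood vessels, had normalized counts of 1810 and 1868 for Control against 1735 and 1589 for CUMS. miR-872-5p had 2016 and 1784 for Control against 1797 and 1938 for CUMS. miR-487b-3p had 2252 and 2255 for Control against 2386 and 1760 for CUMS, with CUMS library a highest and CUMS library b lowest, as for miR-344d-3p and miR-344b-3p. Likeness here means closeness of level over 4 libraries alone.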

How the data were processed

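The authors removed adaptors and other noncoding RNAs, matched clean reads of 18 to 25 nt to miRBase precursors without mismatch, counted reads overlapping a mature miRNA by at least 16 nt and compared the groups with DESeq. The submitters' processing notes name Bowtie, DESeq and mm10, and their versions are not given in the sources used here. What the authors deposited is a signal, a normalized read count averaged over the libraries of a group. The group of each column was taken from the study's own headings. The authors' columns of fold change, log2 fold change, unadjusted and adjusted p and overall mean were not used.

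Members and lists were chosen with earlier results of these data known. The group means are sums of whole reads times a step per library. All 1038 values of each group came out whole (100%, tolerance 1e-09), and size factors recomputed from these reads (1.02 and 1.00 in Control, 1.06 and 0.944 in CUMS) equalled the steps. For 2 Control values another pair of whole numbers came within 10 times the residual. The recovery and the fits were tested on simulated data.

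The ratio of deposited group means was the main result. Because the table holds means, the planned count test served as an alternative, fitted to the recovered reads: edgeR 4.0.16 (quasi-likelihood, TMM) and DESeq2 1.42.0 (Wald) in R 4.3.3, on 719 miRNAs that reached 5 reads in any library, Benjamini-Hochberg adjusted over all of them. Nothing says whether a library holds 1 mouse, so the spread behind the p-values is that between libraries. Values by library are given for members whose group mean reached 5. Outside the family, the 3 miRNAs closest in level to the leading member are named, and miR-410-3p through the list of shared seeds. Ratios have 95% intervals from Wilson's method. Other computations used Python 3.11.15, numpy 2.4.6, pandas 2.3.3, scipy 1.17.1 and matplotlib 3.10.9, with sequences and hairpins from RefSeq (GRCm38.p6) and genes from GENCODE M21. All 13 members matched RefSeq. The alternatives were other scalings, filters, folds and a pseudocount, and leaving out each library. The mRNA data were not analysed here.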

Additional observations from a re-analysis of the deposited data

How the results depend on the processing

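No paired analysis was possible because the deposited means carry no replicate numbers, so the recovered libraries cannot be tied to them. The log2 difference of the summed family was -0.15 with TMM, -0.04 scaled to library totals, -0.14 rescaled to a median ratio of 0 (which removed 0.02), -0.12 with 1 added to both means, and -0.16 without miR-344d-3p, a setting chosen after seeing the data. Leaving out each library gave -0.26 (without CUMS library a) to 0.011 (without CUMS library b). The number of members higher in CUMS was 3 when scaled to library totals, and 1 to 3 with a library left out. Library totals include the 9.32% of epithelial and sensory reads in Control library b. The number past a fold of 1.5 was 1 scaled to library totals, 0 among members whose mean reached 50, 1 at a fold of 2, and 1 to 2 with a library left out. Counting all listed members with a finite fold gave 1 higher and 3 past the fold. Infinite folds were taken out of this setting after its first result was seen. Without CUMS library a, miR-344f-5p moved to -1.99 and miR-344f-3p to 0.17, and without CUMS library b they were -0.57 and -1.001. The cause was not tested. Over 4 libraries left out in turn, miR-344-3p (-0.37 to -0.22), miR-344d-3-5p (0.30 to 0.46) and miR-344c-3p (-0.90 to -0.32) kept their direction, while miR-344d-3p (-0.25 to 0.12) and miR-344b-3p (-0.21 to 0.08) did not. In all 8 test settings 0 members were called, with a smallest member adjusted p of 0.659 to 0.999. Without Control library a, edgeR called 12 miRNAs in all, none of them a member. Reads limit miR-344f-3p, miR-344f-5p and the 6 lowest members.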

Other observations

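Other mouse miRNAs with many near copies, the miR-297, miR-466, miR-467 and miR-669 families, were low in this tissue. The table lists 45 of them, of which 19 had a group mean reaching 5, and together they had 377 and 299 reads for Control against 272 and 214 for CUMS. miR-466 products had 134 and 54 reads for Control against 58 and 45 for CUMS, so Control library a was the highest of the 4. Of the 19 members past the minimum, 14 had a lower mean in CUMS, beside 47.3% of all miRNAs past it. The miR-344 family, with 13 entries, had more reads than these families together in every library.

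Of the other marker lists, choroid plexus miRNAs took 0.164% and 0.204% of the reads for Control against 0.163% and 0.124% for CUMS. Their sum was lower in both CUMS libraries, as the glial one was, but hardly so in CUMS library a. It was nearly all miR-204-5p, with 17193 of 17320 reads in Control library a. The other miRNA of this list, miR-211-5p, overlapped between the groups, with 127 and 20 reads for Control against 92 and 17 for CUMS. Blood miRNAs took 1.16% and 1.07% for Control against 1.17% and 1.33% for CUMS, by a very small margin between Control library a and CUMS library a. miR-486a-5p held nearly all of these reads, 121988 of 122417 in Control library a. In unscaled reads each listed blood miRNA overlapped between the groups. By share of reads, miR-451a and miR-486a-5p were higher in both CUMS libraries, but hardly so in CUMS library a. miR-144-3p overlapped on both measures, with 97 and 63 reads for Control against 82 and 156 for CUMS. The total of Control library b includes its 9.32% of epithelial and sensory reads. The 2 muscle miRNAs listed of 3 had 231 and 348 reads for Control against 206 and 186 for CUMS. CUMS library b, which had the lowest family share, also had the lowest choroid plexus share and the highest summed blood and neuronal shares. The neuronal sum was mostly miR-9-5p, with 689083 of 911652 reads in that library. miR-9-5p and miR-124-3p had their most reads there. miR-128-3p, miR-138-5p and miR-132-3p had theirs in CUMS library a. miR-137-3p had 1064 of 10533646 reads in Control library a and 1008 of 9589323 in CUMS library b. Its share was thus highest in CUMS library b. The part of these cells in the result was not tested.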
